A study of Mus musculus with 64 samples.

Results

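The TRIM family genes were taken as every protein-coding gene whose symbol is Trim followed by a digit, which gave 68 of the 32227 genes in the hippocampal count table. TRIM proteins carry a RING domain, 1 or more B-box domains and a coiled coil, and most act as ubiquitin ligases. Many members restrict viruses or tune the interferon response, and in mice a run of such genes lies together on chromosome 7 as recent tandem copies. Other members work in neurons, where they shape axons, dendrites and synaptic proteins, and a further branch (Trim24, Trim28 and Trim33) acts on chromatin in the nucleus.

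The data were bulk RNA sequencing counts from the hippocampus of 8 inbred mouse strains, with 4 female and 4 male libraries in each strain and 64 libraries in all. Laboratory strains were A/J, 129S1/SvImJ, C57BL/6J (whose genome is the mouse reference), NZO/HlLtJ (prone to obesity) and NOD/ShiLtJ (prone to type 1 diabetes), and strains derived from wild mice were WSB/EiJ, PWK/PhJ and CAST/EiJ. Names are written with a slash throughout. The labels name no treatment and give no age, and nothing states that the libraries of a group came from separate litters or days. Levels are CPM, counts scaled to a common library size with TMM factors. Errors are SD, over 8 libraries where 1 strain is given and over 56 where the other strains are pooled.

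Total counts ran from 16607602 to 27759221 per library. No pair of libraries held identical values. A/J male 2, 129S1/SvImJ female 1 and C57BL/6J male 4 lay farthest from the other libraries of their own groups over all genes tested, with correlations of 0.984, 0.984 and 0.989 against 0.995 for the library nearest to its group. The summed level of 10 choroid plexus markers, tissue that adjoins the hippocampus, ran from 18.4 to 4916 CPM and spread widely within every strain. With that level as a covariate, every call on a named TRIM gene stayed on its side of the threshold. All 8 hippocampal neuron markers and all 8 general neuron markers passed the count filter. By the strain test described below, 4 of the 8 hippocampal markers were called, beside 6.04% of all genes with means of at least 10 CPM. Dsp, for one, averaged 2.65 CPM in CAST/EiJ and 69.8 CPM in A/J. Of the general neuron markers 0 were called. In bulk tissue, fewer cells of a type and less RNA per cell cannot be told apart.

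Of the 68 genes, 49 passed the filter on low counts and were tested. The 19 others had at most 13 counts in a library, and Trim54, a muscle gene, had none. A gene was called when edgeR's quasi-likelihood F test over the 8 strains gave a Benjamini-Hochberg adjusted p under 0.05 over all 17382 genes tested and its strain means spanned at least 1 on the log2 CPM scale. By that rule 20 of the 49 TRIM genes were called (40.8%), where 26.3% of all genes tested were called. Without the range minimum 46 of 49 passed, against 89.2% of all genes, so the TRIM genes stood near the background in passing the F test. Those that did not were Trim23, Trim33 and Trim44. A gene that is expressed in 1 strain only can pass the count filter through that strain and then has to differ, and of the 20 called genes 8 were over the filter's level of 0.451 CPM in all 8 strains, 8 in 1 to 7 strains and 4 in none by at least 4 of 8 libraries.

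The strain differences of the family sat among its weakly expressed genes. Of the 22 TRIM genes with a mean of at least 10 CPM, only Trim59 was called, beside 6.04% of all genes at that level. Of the 27 with a lower mean, 19 were called, beside 53.8% of all genes below 10 CPM. All 12 tested members under 1 CPM were called, and 71.2% of all genes under 1 CPM were. Weakly expressed genes spread more widely across the whole table too, so the counts are read against genes of a like level.

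**Figure D1:**
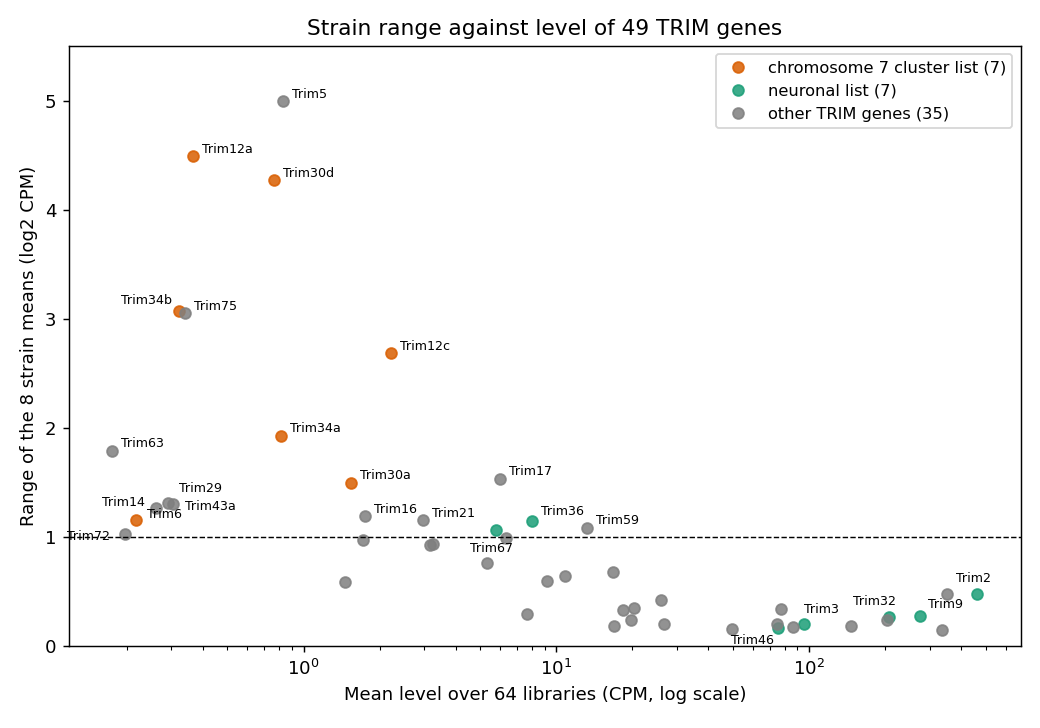
The range of the 8 strain means of each of the 49 tested TRIM genes (log2 CPM) is plotted against its mean over 64 libraries (CPM, log scale), coloured by gene list, with the dashed line at the range minimum of 1. Genes of the chromosome 7 list lie above the line at 0.217 to 2.23 CPM, and Trim2, Trim3, Trim9, Trim32 and Trim46 lie below it at 75.5 to 463 CPM.

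The antiviral cluster of chromosome 7 carried the widest differences. The list held Trim6, Trim12a, Trim12c, Trim30a to Trim30e, Trim34a and Trim34b, of which 7 could be tested. All 7 were called, and all had means under 10 CPM, where 53.8% of all genes tested were called. Their median range was 2.69 on the log2 CPM scale, beside 1.10 over all genes under 10 CPM and 0.54 over all genes. The 5 under 1 CPM had a median range of 3.07, beside 1.48 and 71.2% called over all genes under 1 CPM. Trim12a was over the filter's level in 1 strain only, Trim34b in 3 and Trim30d in 4, so that their passing the filter and their differing are not separate facts. Strain accounted for a median of 86.4% of their variance in log2 CPM, beside 51.1% over all genes tested, whatever their level. Trim5 lies within the same run of genes, although it was not in the list, and it had the widest range of all 49 (4.99). Trim30b and Trim30c were not tested, with at most 4 counts in any library.

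The cluster genes are copies of one another, and the sequence just upstream shows how alike some copies are. The windows below run from 250 bases before to 50 bases after the transcript start, as RefSeq gives them for GRCm38.p6, on the minus strand except for Trim34b on the plus strand. Trim5, Trim12a, Trim30d and Trim34b are shown because they were at or near 0 in some strains, and Trim12c and Trim30a as the copies that were measured in all 8. Capitals mark a match on either strand to GAAA, any 2 bases and GAAA again, the core letters of the interferon-stimulated response element.
Trim12a, chr7:104315446-104315745: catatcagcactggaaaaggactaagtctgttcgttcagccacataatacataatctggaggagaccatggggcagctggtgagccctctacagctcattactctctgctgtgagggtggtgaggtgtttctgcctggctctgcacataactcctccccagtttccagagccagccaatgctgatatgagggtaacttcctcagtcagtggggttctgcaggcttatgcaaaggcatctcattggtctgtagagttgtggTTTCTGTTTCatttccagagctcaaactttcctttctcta
Trim5, chr7:104288057-104288356: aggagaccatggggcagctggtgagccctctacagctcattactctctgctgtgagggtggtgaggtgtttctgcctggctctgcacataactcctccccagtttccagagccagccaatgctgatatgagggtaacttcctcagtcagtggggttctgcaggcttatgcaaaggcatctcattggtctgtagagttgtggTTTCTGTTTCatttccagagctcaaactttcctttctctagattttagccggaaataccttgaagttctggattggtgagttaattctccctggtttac
Trim12c, chr7:104353300-104353599: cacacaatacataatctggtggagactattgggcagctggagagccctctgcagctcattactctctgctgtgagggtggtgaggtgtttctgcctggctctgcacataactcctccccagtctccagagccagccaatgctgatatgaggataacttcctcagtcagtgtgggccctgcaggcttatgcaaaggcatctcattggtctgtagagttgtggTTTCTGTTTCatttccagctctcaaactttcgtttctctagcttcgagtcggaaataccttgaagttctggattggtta
Trim30a, chr7:104465144-104465443: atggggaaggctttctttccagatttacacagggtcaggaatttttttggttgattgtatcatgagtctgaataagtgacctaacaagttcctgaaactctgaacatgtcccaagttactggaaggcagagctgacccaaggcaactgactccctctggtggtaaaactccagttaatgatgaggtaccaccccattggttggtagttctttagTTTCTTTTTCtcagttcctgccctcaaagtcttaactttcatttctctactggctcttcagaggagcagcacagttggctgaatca
Trim30d, chr7:104507800-104508099: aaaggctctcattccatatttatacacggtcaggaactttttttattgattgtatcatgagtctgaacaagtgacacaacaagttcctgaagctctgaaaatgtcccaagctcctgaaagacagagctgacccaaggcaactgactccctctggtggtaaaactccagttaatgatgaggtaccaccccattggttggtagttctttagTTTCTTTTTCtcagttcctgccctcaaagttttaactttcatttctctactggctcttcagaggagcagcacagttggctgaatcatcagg
Trim34b, chr7:104329221-104329520: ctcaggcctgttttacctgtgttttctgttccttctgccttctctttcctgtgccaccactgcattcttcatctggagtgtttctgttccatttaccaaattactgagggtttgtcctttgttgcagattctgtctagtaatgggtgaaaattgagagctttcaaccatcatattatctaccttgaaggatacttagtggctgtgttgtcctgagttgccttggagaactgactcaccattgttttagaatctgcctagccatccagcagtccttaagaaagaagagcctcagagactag

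The Trim12a and Trim5 windows were identical over all 241 aligned bases. Trim12a and Trim12c were 94.6% identical over 261 bases, and the Trim30a window shown and Trim30d were 93.9% identical over 294 bases. RefSeq also gives another Trim30a start, whose window was 86.5% identical to that of Trim30d over 260 bases. The motif was present in the windows of 6 of the 10 genes of the cluster and Trim5 that RefSeq lists, namely Trim5, Trim12a, Trim12c, Trim30a, Trim30d and Trim34a, and its letters were not found for Trim6, Trim30b, Trim30c and Trim34b. By windows, it occurred in 7 of 11 of the cluster and Trim5, beside 3.44% of the 32851 RefSeq promoter windows. A list of interferon-stimulated genes had it in 12 of 25 windows. Among the neuronal genes it was in 1 of 11 windows, that of Trim2, and among the other TRIM members in 2 of 45. A match of letters is a description of these reference windows and not a measured binding site.

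Trim12a, a mouse relative of the primate retrovirus restriction factor TRIM5, was a C57BL/6J gene in these counts. Its lowest, median and highest levels were 2.11, 2.66 and 3.14 CPM in C57BL/6J. In the other 7 strains no library exceeded 0.253 CPM and the strain means were 0.0382 to 0.0773 CPM. All 8 C57BL/6J libraries therefore lay above all 56 others, and the range of strain means was 4.49 on the log2 CPM scale (edgeR adjusted p = 7.1e-29). The reference genome is that of C57BL/6J. Whether reads of the other strains were aligned to it or to genomes of their own was not given in the sources used here, and the part this plays in the Trim12a difference was not tested.

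Its neighbour Trim12c was measured in every strain. The strain means were 3.75 ± 0.585 CPM in A/J, 3.49 ± 0.809 CPM in 129S1/SvImJ, 2.97 ± 0.386 CPM in C57BL/6J, 2.93 ± 0.358 CPM in NZO/HlLtJ, 1.502 ± 0.368 CPM in WSB/EiJ, 1.40 ± 0.435 CPM in CAST/EiJ, 1.26 ± 0.194 CPM in NOD/ShiLtJ and 0.522 ± 0.177 CPM in PWK/PhJ. Libraries of the first 4 strains overlapped among themselves, as did those of the next 3, and PWK/PhJ had the lowest mean. In PWK/PhJ the lowest, median and highest library were at 0.338, 0.463 and 0.823 CPM, and the gene averaged 2.47 ± 1.09 CPM in the other 7 strains; edgeR put the log2 fold change at -2.07 (SE 0.153, adjusted p = 9.77e-18).

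Trim5 was highest in NZO/HlLtJ and undetected in 129S1/SvImJ. The lowest, median and highest levels were 2.05, 2.77 and 3.495 CPM in NZO/HlLtJ and 0.825, 1.53 and 1.96 CPM in WSB/EiJ. In C57BL/6J, NOD/ShiLtJ and CAST/EiJ the medians were 0.600, 0.774 and 0.610 CPM, and PWK/PhJ had a median of 0.235 CPM. NZO/HlLtJ therefore stood above all 56 other libraries. In 129S1/SvImJ the gene had 0 counts in all 8 libraries, which is at least 56.5-fold lower than the mean of 0.944 CPM in the other strains when 3 counts over the strain are taken as the floor. A/J had 3 counts in all, 1 in each of 3 libraries, at a mean of 0.0170 CPM. The strain range had an edgeR adjusted p of 6.94e-24.

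Trim30d split the strains into 4 with the transcript and 4 nearly without it. Its lowest, median and highest levels were 1.72, 1.87 and 2.50 CPM in NOD/ShiLtJ, 1.35, 1.55 and 1.98 CPM in NZO/HlLtJ, 0.854, 1.504 and 2.32 CPM in C57BL/6J, and 0.541, 0.953 and 1.08 CPM in PWK/PhJ. In 129S1/SvImJ, A/J, CAST/EiJ and WSB/EiJ no library exceeded 0.0920 CPM, and the totals over 8 libraries were 5, 7, 4 and 5 counts. The 2 sets did not overlap, and the range was 4.27 on the log2 CPM scale (edgeR adjusted p = 1.58e-30). Strain held 97.0% of the variance of this gene.

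Trim30a, which in mice restrains Toll-like receptor signalling by degrading TAB2 and TAB3, was present in every strain and lowest in CAST/EiJ. Its lowest, median and highest levels were 0.531, 0.640 and 1.45 CPM in CAST/EiJ, and it averaged 1.65 ± 0.427 CPM in the other strains, and edgeR put the log2 fold change at -1.13 (SE 0.119, adjusted p = 3.62e-12). The value of 1.45 CPM was CAST/EiJ male 1, and the other 7 libraries lay between 0.531 and 0.751 CPM. That library also had the highest interferon-stimulated gene sum of its strain, 177.8 CPM. Among males alone the change in CAST/EiJ was -0.94 (adjusted p = 7.82e-05), under the fold minimum. The CAST/EiJ females carry sample numbers apart from all other libraries in the labels, so sex and that numbering cannot be told apart in this strain.

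The Trim34 copies differed in which strains held most of each. Trim34b had 1 count in C57BL/6J and 2 counts in PWK/PhJ over 8 libraries each. Its strain means were 0.727 ± 0.215 CPM in NZO/HlLtJ, 0.584 ± 0.194 CPM in WSB/EiJ, 0.428 ± 0.161 CPM in 129S1/SvImJ, 0.426 ± 0.282 CPM in A/J, 0.338 ± 0.135 CPM in NOD/ShiLtJ and 0.0596 ± 0.0644 CPM in CAST/EiJ. Those neighbours overlapped within their SD down to NOD/ShiLtJ. Trim34a was highest in C57BL/6J, at 1.19, 1.81 and 2.36 CPM for the lowest, median and highest library, against 0.685 ± 0.332 CPM in the other strains, and edgeR put the log2 fold change at 1.43 (SE 0.159, adjusted p = 6.82e-11).

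**Figure D2:**
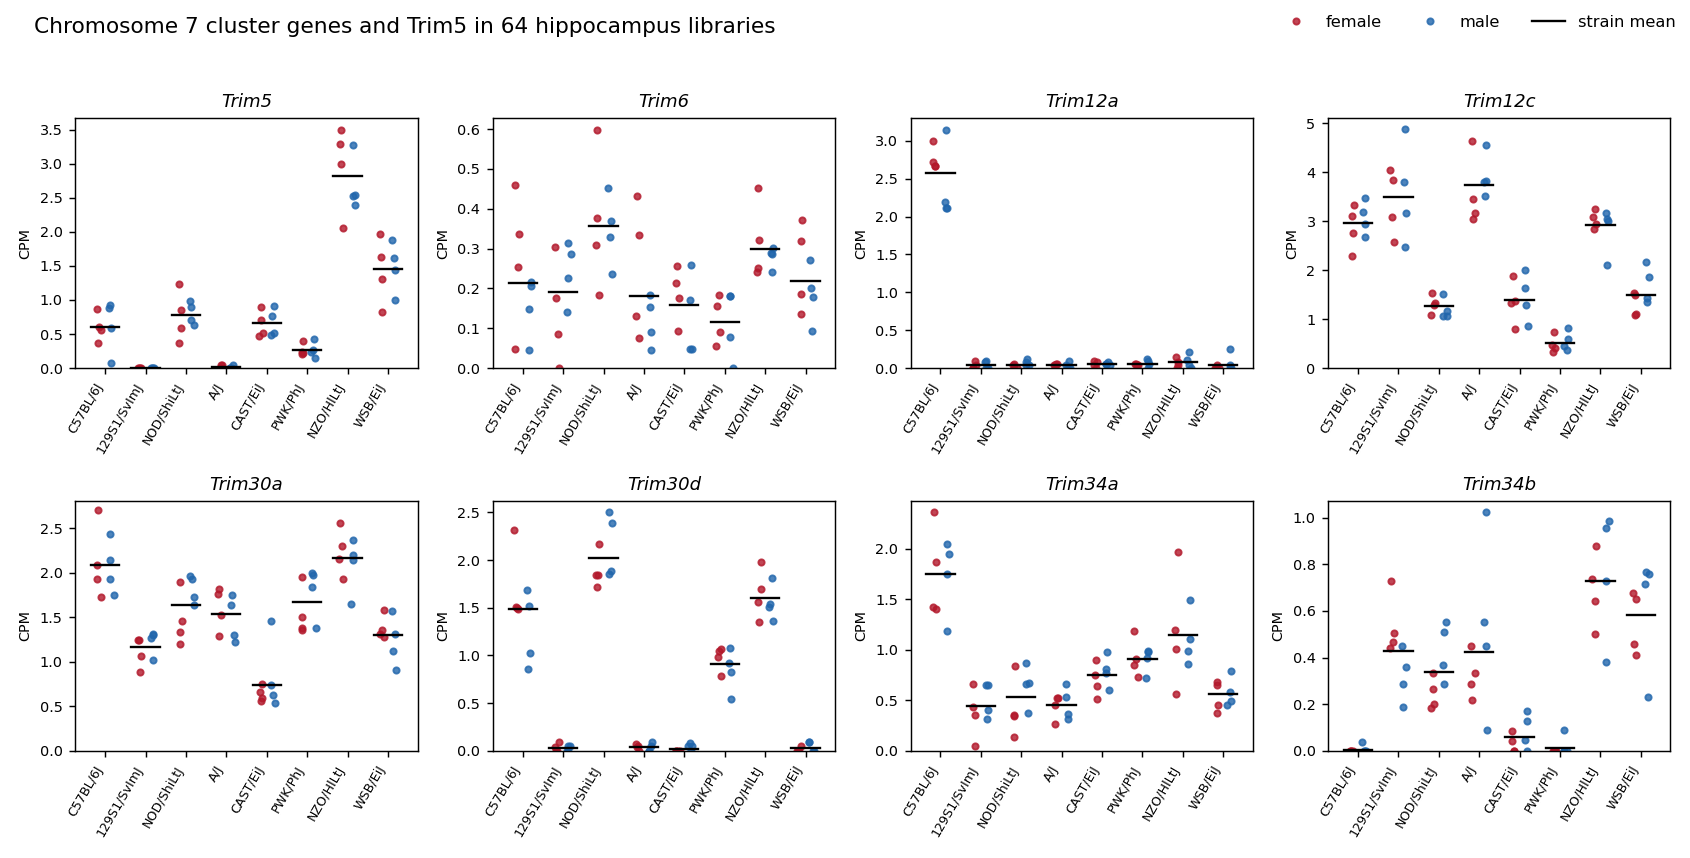
Levels (CPM) of Trim5 and the 7 tested genes of the chromosome 7 list in 64 libraries, by strain, with females and males as separate points and the strain mean as a bar. Trim12a is above 2 CPM in C57BL/6J and no higher than 0.253 CPM in any other library, and Trim30d is at least 0.541 CPM in 4 strains and at most 0.0920 CPM in the other 4.

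Reads of such copies can be assigned to the wrong one, so the copies were also described as shares of their joint counts. Trim12a took 46.4% of the Trim12 counts in C57BL/6J (exact 95% interval 43.2 to 49.6%, counting error only) and 1.05 to 10.1% in the other strains. Trim34b took 0.331% in C57BL/6J (0.00838 to 1.83%), 1.3% in PWK/PhJ and 7.59% in CAST/EiJ, and 38.9 to 51.0% in the other 5 strains. Trim30d took 54.3% of the Trim30 counts in NOD/ShiLtJ, 42.0% in NZO/HlLtJ, 40.3% in C57BL/6J and 34.3% in PWK/PhJ, and 2.07 to 2.88% in the others.

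With the copies of each group added up, the strains still differed. The summed Trim12 counts averaged 5.54 ± 0.658 CPM in C57BL/6J, against 2.17 ± 1.25 CPM in the other strains (log2 fold change 1.59, SE 0.0968, edgeR adjusted p = 1.14e-20), and 0.579 ± 0.202 CPM in PWK/PhJ, against 2.88 ± 1.54 CPM in the others (-2.08, SE 0.15, adjusted p = 4.18e-18). The summed Trim30 counts were lowest in CAST/EiJ at 0.771 ± 0.316 CPM, against 2.58 ± 1.16 CPM in the others (-1.60, SE 0.115, adjusted p = 3.36e-18), and were called higher in NZO/HlLtJ at 3.80 ± 0.350 CPM, against 2.15 ± 1.19 CPM in the others (1.03, SE 0.0844, adjusted p = 2.57e-15). The summed Trim34 counts spanned only 1.13 on the log2 CPM scale, where Trim34b alone spanned 3.07 and Trim34a 1.93, and no strain passed the fold minimum against the others. In the annotated transcripts, 59.7% of the 50-base stretches of Trim34a and 56.8% of those of Trim34b also occur in another gene, 36.6% of those of Trim5, 33.7% of Trim12c, 10.5% of Trim12a, 7.49% of Trim30d and 5.98% of Trim30a. The levels of the Trim34 copies, Trim5 and Trim12c are therefore uncertain as levels of single genes. The Trim12 sum held Trim12a and Trim12c but not Trim5, although 24.2% of the Trim12c stretches also occur in Trim5. That sum therefore does not cover reads shared with Trim5.

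**Figure D3:**
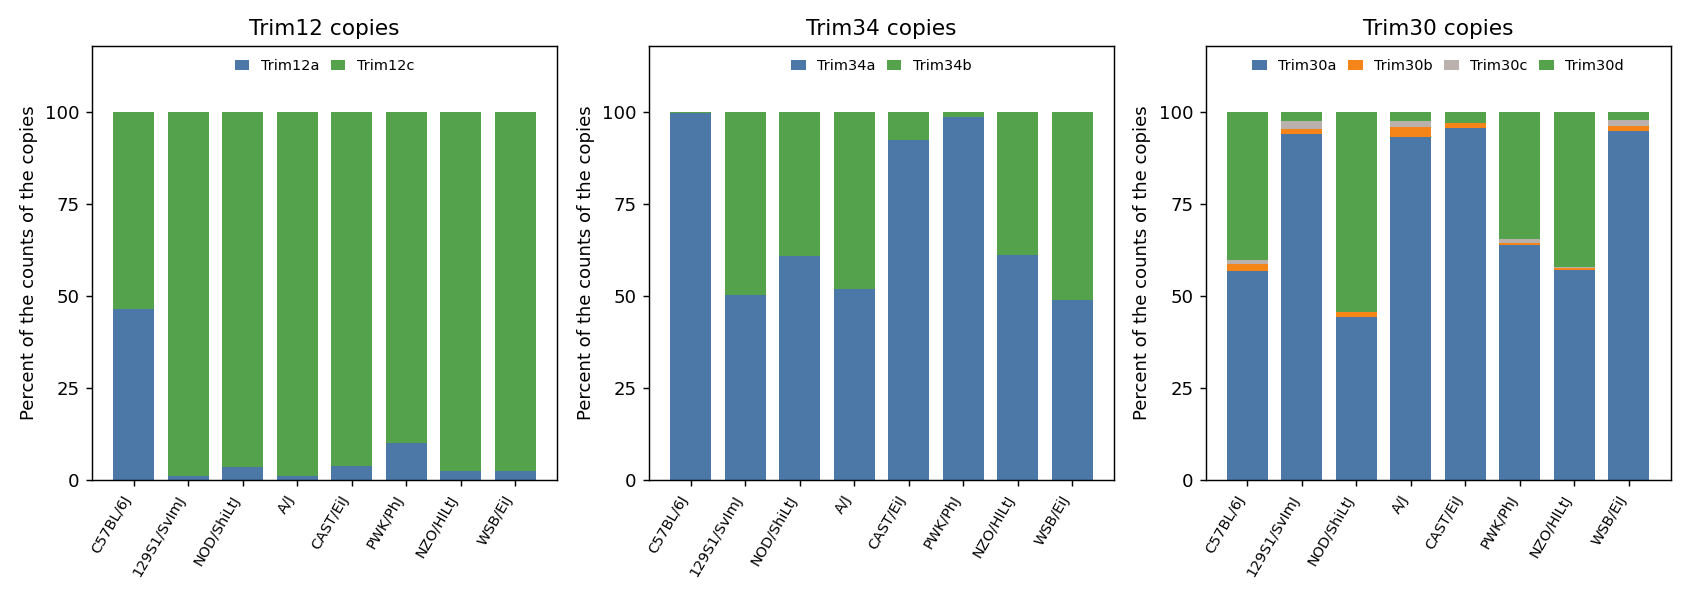
Stacked bars give the percentage of the joint counts of the Trim12, Trim34 and Trim30 copies that each copy took, over the 8 libraries of a strain. Trim12a holds 46.4% in C57BL/6J only, and Trim30d holds 34.3 to 54.3% in NOD/ShiLtJ, NZO/HlLtJ, C57BL/6J and PWK/PhJ.

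Trim6, the last of the cluster, was weak everywhere. It averaged 0.357 ± 0.129 CPM in NOD/ShiLtJ, its highest strain, and 0.116 ± 0.0690 CPM in PWK/PhJ, its lowest, with a range of 1.16 (edgeR adjusted p = 0.00487). NOD/ShiLtJ libraries had 4 to 12 counts and PWK/PhJ libraries at most 4. No strain was called against the others, and without PWK/PhJ male 3 the range fell to 0.987, under the minimum.

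The joint level of the 7 tested list genes was highest in C57BL/6J and lowest in CAST/EiJ. Trim5 is left out of this sum, and it averaged 2.82 CPM in NZO/HlLtJ and 0.607 CPM in C57BL/6J. The lead of C57BL/6J over NZO/HlLtJ rests on leaving Trim5 out. The 7 tested genes summed to 11.1 ± 1.70 CPM in C57BL/6J, 8.95 ± 0.557 CPM in NZO/HlLtJ, 6.43 ± 1.01 CPM in A/J, 6.20 ± 0.561 CPM in NOD/ShiLtJ, 5.78 ± 1.02 CPM in 129S1/SvImJ, 4.24 ± 0.505 CPM in WSB/EiJ, 4.19 ± 0.572 CPM in PWK/PhJ and 3.18 ± 0.806 CPM in CAST/EiJ. Beside it, 26 interferon-stimulated genes summed to 176 CPM in C57BL/6J, 167 CPM in WSB/EiJ, 161 CPM in NZO/HlLtJ and in 129S1/SvImJ, 149 CPM in CAST/EiJ, 147 CPM in A/J, 144 CPM in NOD/ShiLtJ and 141 CPM in PWK/PhJ. CAST/EiJ, lowest for the cluster sum, was thus not lowest for this sum. Strong genes weigh most in such a sum, and Ifi27 alone was at 31.6 CPM in CAST/EiJ and 5.3 CPM in PWK/PhJ. By the median log2 fold change of the 26 genes against the other strains, CAST/EiJ was lowest (-0.393). C57BL/6J (0.542) and NZO/HlLtJ (0.418) were highest by that median. Of the 26, 18 were called by the strain test, beside 26.3% of all genes. Of the 22 with means under 10 CPM 17 were called (77.3%), beside 53.8% of all genes at that level. The microglia marker sum, from 12 genes of the cells that express many antiviral genes in brain, ran from 400 CPM in 129S1/SvImJ to 556 CPM in A/J, with 530 CPM in C57BL/6J and 416 CPM in CAST/EiJ. The part of microglia or of interferon output in the cluster's levels was not tested.

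Averaged over the 64 libraries, the neuronal TRIM genes were all more abundant than the cluster genes per kilobase of exon, though Trim67 only narrowly. The list held Trim2, Trim3, Trim9, Trim32, Trim36, Trim46 and Trim67, which were all tested. Trim36 and Trim67, the 2 with means under 10 CPM, were called, which is 28.6% of the list, beside 26.3% of all genes tested. The other 5 had means of at least 10 CPM, where 6.04% of all genes were called, and none of them was. Their median range was 0.27 on the log2 CPM scale, beside 0.35 over all genes at that level. Per kilobase of annotated exon, Trim32 averaged 64.4 CPM, the highest level of the 49 TRIM genes, Trim2 23.5, Trim3 20.97, Trim46 19.9 and Trim9 19.4 CPM, against at most 0.596 CPM per kilobase for a gene of the chromosome 7 list (Trim12c). Trim36 averaged 1.63 and Trim67 only 0.659 CPM per kilobase, and single strains were not compared in this way. The sum of the 7 genes ran from 1016 ± 37.3 CPM in NZO/HlLtJ to 1267 ± 61.1 CPM in PWK/PhJ. No strain was called higher or lower than the others for any of the 7.

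Trim36, a ligase that binds microtubules, averaged 11.1 ± 1.296 CPM in NOD/ShiLtJ and 4.94 ± 0.401 CPM in WSB/EiJ. In WSB/EiJ its lowest, median and highest level were 4.21, 4.97 and 5.46 CPM, while NOD/ShiLtJ ran from 8.65 to 12.7 CPM, so these strains did not overlap (range 1.15, edgeR adjusted p = 8.21e-20). NZO/HlLtJ, at 5.94 ± 0.753 CPM, was the next lowest. CAST/EiJ and PWK/PhJ were at 9.56 ± 1.06 and 10.2 ± 1.01 CPM.

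Trim67, a close relative of Trim9 that binds the netrin receptor DCC, was high in A/J and PWK/PhJ. Its lowest, median and highest levels were 6.26, 9.13 and 10.8 CPM in A/J and 7.15, 8.53 and 11.3 CPM in PWK/PhJ. The other 6 strains had means of 4.12 to 5.19 CPM, and their highest library reached 6.43 CPM. Only the lowest A/J library overlapped them (range 1.07, edgeR adjusted p = 6.3e-19). The range fell to 0.97 in males alone (adjusted p = 1.56e-09).

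The 5 other neuronal genes changed by small steps. Trim2, which ubiquitinates the light neurofilament in axons, averaged 544 ± 35.9 CPM in PWK/PhJ, 532 ± 65.5 CPM in CAST/EiJ and 391 ± 24.5 CPM in NZO/HlLtJ, with a range of 0.48 (edgeR adjusted p = 9.53e-09). Trim32, which promotes neuronal differentiation of mouse progenitors, averaged 235 ± 11.8 CPM in CAST/EiJ and 195 ± 4.35 CPM in NZO/HlLtJ; all CAST/EiJ libraries (224 CPM and above) lay above all NZO/HlLtJ libraries (202 CPM and below). Trim9, a synaptic and axonal ligase that also binds DCC, was highest in PWK/PhJ at 308 ± 16.6 CPM and lowest in NZO/HlLtJ at 253 ± 10.6 CPM. NZO/HlLtJ was thus the lowest strain of all 3 genes. Trim46, which bundles microtubules at the axon start, ran from 70.5 ± 4.10 CPM in C57BL/6J to 79.5 ± 5.61 CPM in PWK/PhJ, with a range of 0.17 (adjusted p = 0.00425). None of the 11 netrin and axon partner genes tested, among them Dcc, Ntn1 and Nefl, was called by the strain test. All 11 had means of at least 10 CPM, where only 6.04% of all genes were called.

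**Figure D4:**
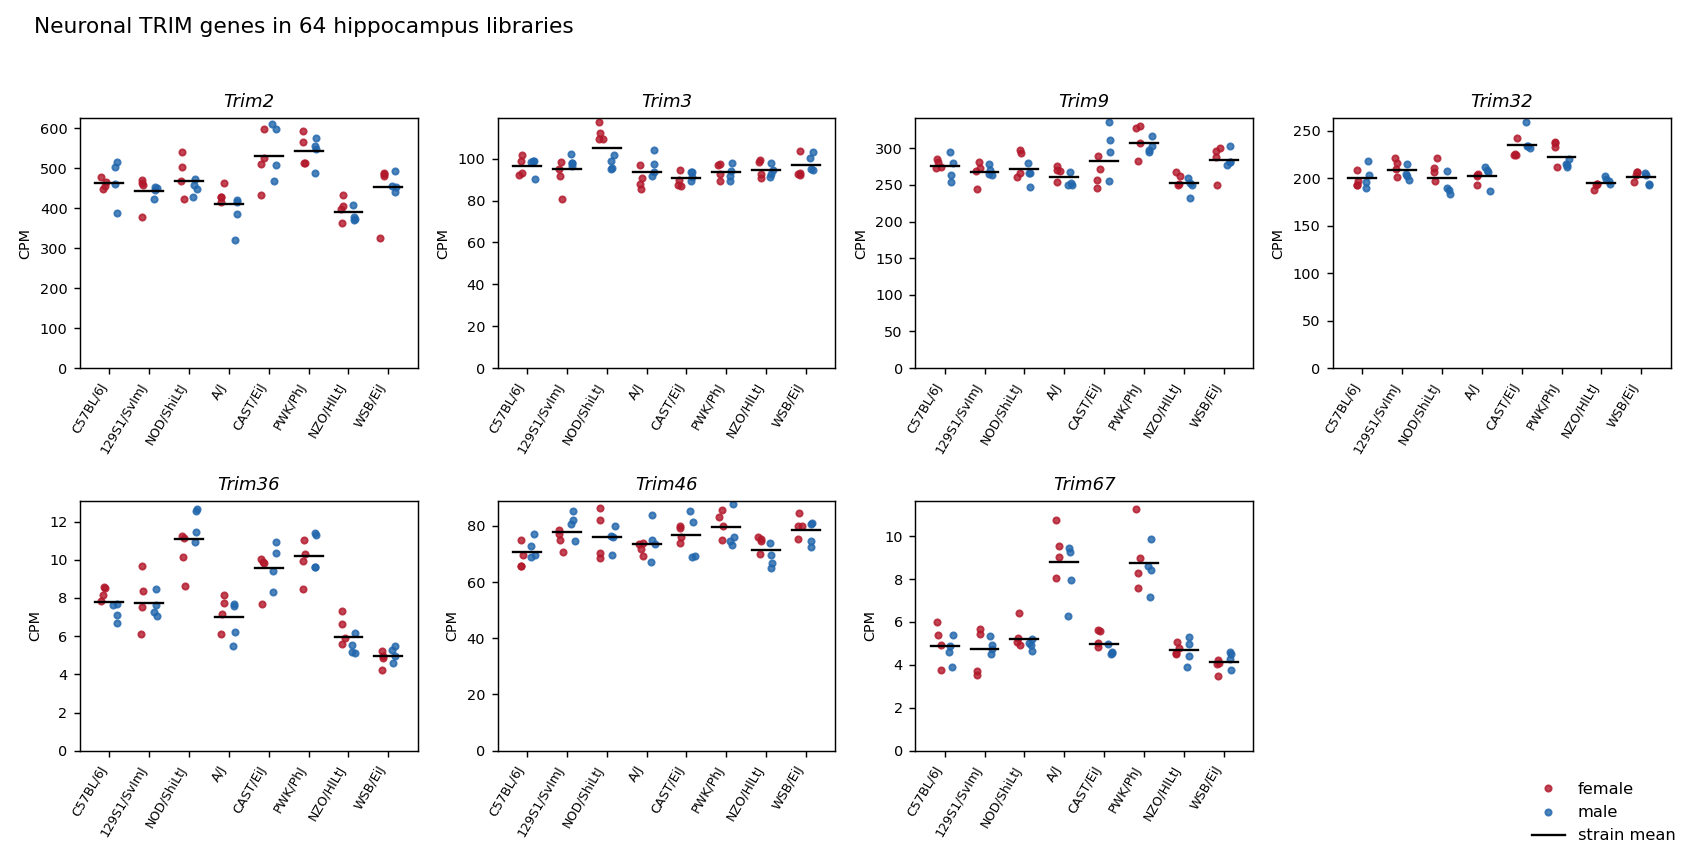
Levels (CPM, axes from 0) of the 7 neuronal TRIM genes in 64 libraries, by strain, with females and males as separate points and the strain mean as a bar. Trim67 stands high in A/J and PWK/PhJ (means of 8.79 and 8.77 CPM), while Trim3 and Trim46 are nearly level across strains.

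Among the 35 remaining tested genes, 11 were called, Trim5 included, a share near the 26.3% of all genes. Of those under 10 CPM 10 of 18 were called (55.6%), beside 53.8% of all genes, and of those above it 1 of 17, beside 6.04%. Trim75 was high in CAST/EiJ and PWK/PhJ, the only 2 strains where it was over the filter's level. Its passing the filter and its differing are therefore not separate facts. Its lowest, median and highest levels were 0.610, 0.925 and 1.37 CPM in CAST/EiJ and 0.781, 1.04 and 1.35 CPM in PWK/PhJ, and no library of the other 6 strains exceeded 0.280 CPM. Both strains therefore lay wholly above the other 6, and the log2 fold changes against the other 7 strains were 2.69 (SE 0.191, edgeR adjusted p = 2.14e-18) in CAST/EiJ and 2.74 (SE 0.193, adjusted p = 1.69e-18) in PWK/PhJ.

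Trim17, which in neurons promotes cell death by degrading MCL1, was the most abundant of the called genes after Trim59 and Trim36. It averaged 9.88 ± 1.39 CPM in C57BL/6J, 7.78 ± 1.03 CPM in A/J and 3.40 ± 0.725 CPM in CAST/EiJ, with a range of 1.53 (edgeR adjusted p = 1.29e-13). Its annotated transcripts share 17.7% of their 50-base stretches with the histone gene Hist3h2a, so its level is uncertain to that extent. Trim59, a membrane-anchored member, averaged 18.3 ± 2.03 CPM in C57BL/6J, 16.5 ± 2.40 CPM in 129S1/SvImJ and 8.57 ± 0.925 CPM in CAST/EiJ, with a range of 1.09 (adjusted p = 2.25e-15). For both genes the lowest C57BL/6J library lay above the highest CAST/EiJ library.

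Trim21, the cytosolic antibody receptor that directs antibody-bound virus to the proteasome, ran the other way. It averaged 4.61 ± 0.603 CPM in CAST/EiJ and 2.05 ± 0.450 CPM in C57BL/6J, with no overlap between them (range 1.16, edgeR adjusted p = 1.01e-10). CAST/EiJ, lowest for the chromosome 7 sum, was thus highest for this antiviral gene. Trim16, which lacks a RING and marks damaged lysosomes for autophagy, averaged 2.66 ± 0.442 CPM in A/J and 1.14 ± 0.334 CPM in 129S1/SvImJ (range 1.19, adjusted p = 7.5e-11). Trim14, an adaptor of antiviral signalling, averaged 0.422 ± 0.201 CPM in PWK/PhJ and 0.116 ± 0.0571 CPM in CAST/EiJ (adjusted p = 0.000173), and it shares 29.5% of its stretches with the neighbouring gene Nans. Most libraries with Trim14 over the filter's level were of PWK/PhJ and C57BL/6J, its highest strains. Its passing the filter and its differing are therefore not separate facts. Of the 10 tested antiviral genes outside the cluster, Trim14 and Trim21 were the only 2 called, beside 26.3% of all genes. Both were among the 5 with means under 10 CPM (40% called), beside 53.8% of all genes at that level. Of the 5 with means of at least 10 CPM 0 were called, beside 6.04% of all genes. Trim25, the ligase that activates the RNA sensor RIG-I, lay just under the minimum with a range of 0.99.

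The remaining called genes were under 0.5 CPM in nearly every strain. Trim63, the muscle ligase MuRF1, averaged 0.405 ± 0.190 CPM in WSB/EiJ and 0.360 ± 0.122 CPM in 129S1/SvImJ, and 0.0517 ± 0.0538 CPM in A/J (range 1.79, edgeR adjusted p = 5.5e-08). Trim43a, a gene of the early embryo with close copies, averaged 0.605 ± 0.227 CPM in CAST/EiJ, against 0.260 ± 0.116 CPM in the other strains (log2 fold change 1.26, SE 0.196, adjusted p = 1.68e-07). Trim29 averaged 0.478 ± 0.137 CPM in CAST/EiJ and 0.138 ± 0.0521 CPM in 129S1/SvImJ (adjusted p = 1.73e-05). Trim43a and Trim29 were each over the filter's level in only 1 strain, so their passing the filter and their differing are not separate facts. The same holds for Trim63, whose libraries over that level were all of WSB/EiJ and 129S1/SvImJ. Trim72, a membrane repair protein of muscle, had the narrowest range of the 20, 1.03 (adjusted p = 0.00694), and it fell to 0.967 when 1 A/J library was left out. Of the Trim72 stretches, 23.8% also occur in Gm15533. The chromatin members Trim24, Trim28, Trim33 and Trim66 were not called, nor were any of the 7 partners of Trim28 in silencing, among them Setdb1. All of these had means of at least 10 CPM, where only 6.04% of all genes were called. Of 17 genes of the RNA and DNA sensing pathway, Cgas and Ikbke were called (11.8%), beside 26.3% of all genes. Both were among the 7 with means under 10 CPM (28.6% called), beside 53.8% of all genes at that level.

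**Figure D5:**
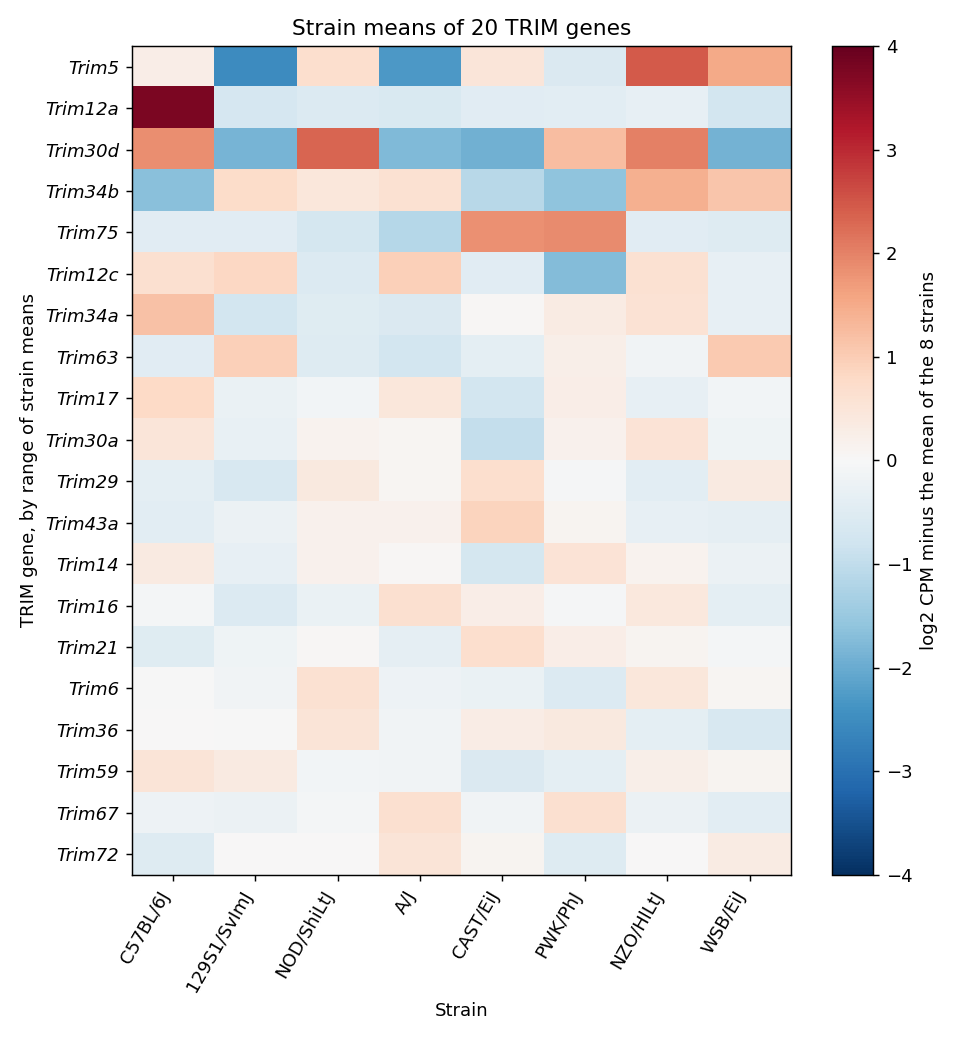
Each cell gives a strain's mean log2 CPM minus the mean of the 8 strains, for the 20 called TRIM genes in order of range, on a scale from -4 to 4. Trim12a stands out in C57BL/6J, Trim75 in CAST/EiJ and PWK/PhJ, and Trim30d is low in 129S1/SvImJ, A/J, CAST/EiJ and WSB/EiJ.

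Each strain was also set against the mean of the other 7, with a log2 fold change of at least 1 and an adjusted p under 0.05. These comparisons share libraries. The quasi-likelihood test of edgeR called 34 of 392 gene and strain pairs, but for 6 pairs of Trim5, Trim30d and Trim34b whose groups were at or near 0 it returned the largest possible p, which is no sign of a lack of difference. Per strain it called 4 in C57BL/6J (beside 3.85% of all genes), 5 in 129S1/SvImJ (3.64%), 4 in NOD/ShiLtJ (3.91%), 4 in A/J (3.58%), 6 in CAST/EiJ (9.25%), 4 in PWK/PhJ (9.35%), 3 in NZO/HlLtJ (3.65%) and 4 in WSB/EiJ (4.95%). Its contrast averages the strains on the log scale, so strains near 0 weigh heavily. It called Trim5 higher in C57BL/6J at 0.607 CPM, against 0.858 CPM in the others, and limma-trend did not. limma-trend on log2 CPM, added after the data were seen, called 28 pairs, of which 21 were shared with edgeR in the same direction. It called all 6 of those pairs lower, with an adjusted p of 1.8e-19 for Trim30d in 129S1/SvImJ and 1.11e-18 for Trim5 in A/J. Both methods called the same 20 genes over all strains. They took the range of strain means from the same log2 CPM values, so on that part of the rule they could not differ.

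By limma-trend, C57BL/6J had 3 TRIM genes higher (Trim12a, Trim30d and Trim34a) and 1 lower (Trim34b), where 1.59% and 1.33% of all genes were called higher and lower. NZO/HlLtJ had 3 higher (Trim5, Trim30d and Trim34b, beside 1.77% of all genes) and 0 lower (0.972%). NOD/ShiLtJ had 1 higher (Trim30d, 1.85%) and 0 lower (1.07%). WSB/EiJ had 3 higher (Trim5, Trim34b and Trim63, 1.73%) and 1 lower (Trim30d, 2.15%). A/J had 1 higher (Trim12c, 1.36%) and 3 lower (Trim5, Trim30d and Trim75, 1.24%). 129S1/SvImJ had 1 higher (Trim63, 1.35%) and 2 lower (Trim5 and Trim30d, 1.23%). PWK/PhJ had 2 higher (Trim30d and Trim75, 3.05%) and 2 lower (Trim12c and Trim34b, 5.03%). CAST/EiJ had 2 higher (Trim75 and Trim43a, beside 3.33%) and 3 lower (Trim30a, Trim30d and Trim34b, beside 4.76%). Outside Trim5 and the chromosome 7 list, the only members it called in any strain were Trim43a, Trim63 and Trim75.

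No TRIM gene passed the test between females and males. edgeR called 0 of 49 for sex, with 0.167% of all genes called, and 0 of 49 for the interaction of strain and sex, with 0.046% of all genes called. For Trim5, with 0 counts in 129S1/SvImJ, edgeR's log2 sex change had an SE of 117. That Trim5 is not among these calls is therefore no sign of a lack of difference. At an unadjusted p under 0.05 the counts were 3 for sex (Trim34b, Trim63 and Trim68, beside 5.3% of all genes) and 5 for the interaction (beside 10.7%). limma-trend and DESeq2 called 0 for sex. The smallest sex p was that of Trim68, with a log2 female over male change of -0.13 (SE 0.0438, adjusted p = 0.493). For the interaction DESeq2 called Trim3 (adjusted p = 0.0453) where edgeR did not (adjusted p = 0.337). DESeq2 called 59 of the 9294 genes to which it gave an adjusted p (0.635%). Trim3, which ubiquitinates scaffold proteins of the synapse, was at 109.5 to 117.6 CPM in NOD/ShiLtJ females and 94.9 to 102 CPM in NOD/ShiLtJ males, with no overlap.

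The strain order held in each sex for most called genes. The highest strain was the same in females and in males for 16 of the 20, and the lowest for 14. The exceptions were genes with a mean under 0.5 CPM, apart from Trim67, whose highest strain was A/J in females and PWK/PhJ in males, and genes such as Trim12a, Trim30d and Trim34a whose lowest strains lay at like levels.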

How the data were processed

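The measurements were gene counts from bulk RNA sequencing of 64 hippocampal libraries. RNA was purified with a TRIzol Plus kit and DNase digestion, and libraries were made with a TruSeq kit, per the labels' protocols. The authors deposited a table of raw counts per gene, named for Ensembl 105, and the submitters' processing notes name the build GRCm39. The sources used here do not give the aligner, the counter, the use of strand in counting or any use of strain-specific genomes. Columns were matched to samples by title: 50 of 64 equalled the first parts of the title and the other 14 lacked 1 digit of it.

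The members and gene lists were chosen with earlier results of these data known. Members were all protein-coding genes named Trim followed by a digit. The text names the tested genes of the chromosome 7 and neuronal lists, other members passing the strain test, and members passing a sex or interaction test; Trim23, Trim25, Trim33, Trim44, Trim68 and the chromatin members were named after their values were seen. Genes were kept with filterByExpr (minimum count 10, minimum total 15). edgeR 4.0.16 in R 4.3.3 (TMM, robust quasi-likelihood) was fitted on 16 means of strain and sex with 48 residual degrees of freedom. P-values were adjusted by the Benjamini-Hochberg method over all 17382 genes tested, at 0.05, with a log2 minimum of 1 for strain differences. Log2 CPM used a prior count of 2. Alternatives used DESeq2 1.42.0, other filters, either sex, summed copies, a choroid plexus covariate and each library left out; limma 3.58.1 (limma-trend) and a fit without 3 libraries were added after the data were seen. The code was tested on simulated data. Shares have exact binomial 95% intervals, and the floor for a strain at 0 is 3 counts over its 8 libraries; both cover counting error only.

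Replicate numbers were given in deposition order and only name a library. No labels say that libraries came from separate animals, so p-values measure the spread between these libraries, which may be technical. The chi-square per gene between libraries of a group was 2.75 to 53.7, so none was counted as a repeat of another. Promoter windows, on GRCm38.p6, came from RefSeq tables, matched by symbol for 53 of 68 members. An older mouse annotation served for gene names, exon lengths and shared transcript sequence.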

Additional observations from a re-analysis of the deposited data

Results flagged for a closer look

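In 13 of the 200 gene and strain groups examined (6.5%), 1 library stood apart from the other 7 by Dixon's test, and chance alone flags about 1 in 20 groups. In the cluster, Trim12a was at 0.253 CPM in WSB/EiJ male 4, where the others were at most 0.0451 CPM. Within C57BL/6J, Trim34b had counts in male 3 only (0.0371 CPM), and within PWK/PhJ in male 1 only (0.0899 CPM). Trim12c was low in NZO/HlLtJ male 3 (2.1 CPM, others 2.85 to 3.24 CPM), and Trim6 was high in NZO/HlLtJ female 2 (0.452 CPM, others 0.24 to 0.322 CPM). Trim30a was high in CAST/EiJ male 1 (1.45 CPM, others 0.531 to 0.751 CPM).

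Among neuronal genes, Trim67 was high in NOD/ShiLtJ female 2 (6.43 CPM, others 4.66 to 5.25 CPM). Trim2 was low in WSB/EiJ female 1 (326 CPM, others 442 to 494 CPM). Trim9 was low in 129S1/SvImJ female 1 (245 CPM) and Trim46 high in A/J male 2 (83.9 CPM), and both of those libraries also lay far from their groups over all genes. Of the weak genes, Trim29 was low in WSB/EiJ male 1 (0.0897 CPM), and Trim72 was high in 129S1/SvImJ male 1 (0.374 CPM) and in PWK/PhJ female 3 (0.207 CPM).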

How the results depend on the processing

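No paired analysis was possible because the replicate numbers were given in accession order. No direction reversed under any alternative run. DESeq2 size factors and the choroid plexus covariate each left all 59 gene-level results on their side of the threshold. TRIM genes called by the strain test numbered 5 with a mean count of at least 50 and 46 with no fold minimum, where 89.2% of all genes passed. Against the other strains, a mean count of at least 50 left 0 calls in every strain, since most called genes were no longer tested. With no fold minimum the calls were 19 in C57BL/6J, 16 in 129S1/SvImJ, 21 in NOD/ShiLtJ, 20 in A/J, 24 in CAST/EiJ, 26 in PWK/PhJ, 25 in NZO/HlLtJ and 17 in WSB/EiJ. With no count filter they were 8 in NOD/ShiLtJ, 10 in CAST/EiJ and 7 in PWK/PhJ. They were 5 in NZO/HlLtJ for females only, and 3 in 129S1/SvImJ and 3 in CAST/EiJ for males only. With copies summed they were 2 in C57BL/6J, 3 in 129S1/SvImJ, 2 in NOD/ShiLtJ, 2 in A/J and 2 in WSB/EiJ. Shares over all genes were not taken for the per-strain calls under these settings, so these counts show only how the calls moved. limma-trend gave 3 in 129S1/SvImJ and 1 in NOD/ShiLtJ, and DESeq2 called 1 gene for the interaction; the cause was not tested.

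With each library left out in turn, the strain test called 19 to 21 genes. Calls were 4 to 5 in C57BL/6J, 4 to 5 in 129S1/SvImJ, 4 to 5 in NOD/ShiLtJ, 4 in A/J, 5 to 7 in CAST/EiJ, 3 to 5 in PWK/PhJ, 3 in NZO/HlLtJ and 3 to 4 in WSB/EiJ, and 0 for sex and for the interaction. The depth limits the genes under 1 CPM most, where a library holds few counts. Reads shared by copies, and differences of a strain from the reference genome, can move counts between copies or lose them, and this was not tested.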

Other observations

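TRIM proteins whose genes carry other names were also measured. Of 5 tested, Mid1 and Bspry were called by the edgeR strain test (40%), beside 26.3% of all genes. Bspry averaged 4.35 ± 0.383 CPM in PWK/PhJ, against 1.37 ± 0.924 CPM in the other strains (log2 fold change 2.07, adjusted p = 1.35e-26). It averaged 0.354 ± 0.144 CPM in CAST/EiJ, against 1.94 ± 1.297 CPM in the others (-2.05, adjusted p = 2.14e-17).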
